A study of Mus musculus with 6 samples.

Results

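Interferon-stimulated effector genes are the antiviral and RNA-sensing genes that cells switch on when interferon reaches them. The list held 40 such genes, and their probe sets were taken from the array table by gene symbol. Of the 40, 37 had a probe set that the platform annotation gave to that gene alone, out of 19938 genes measured in all. Isg15 and Gbp2 were named together with another gene on their probe sets and were not used, and Ifi44 was not listed. The 40 genes were put together with the knockout and wild-type differences of these arrays already known, so those differences are given below as a description and not as evidence.

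The arrays measured RNA from the organ of Corti, which is the hearing epithelium of the cochlea, from mice at postnatal day 15. Of the 6 arrays, 3 came from Pjvk-/- mice (knockout), which lack pejvakin, a gasdermin-family protein needed for hearing, and 3 from Pjvk+/+ mice (wild-type). All animals had the mixed strain background C57BL/6J-129/Sv, and no agent or sound treatment is given for them. The labels do not say how Pjvk was inactivated, whether animals were pooled, or whether replicates came from separate animals, so the spread between replicates may be technical. The log2 signal of Pjvk itself was 4.42, 4.36 and 4.21 in the knockout arrays, against 4.75, 5.06 and 4.96 in the wild-type arrays. Markers of hair cells and supporting cells (6 genes each) were present at mean log2 levels of 7.82 to 7.88 and 8.89 to 8.99 in the knockout arrays, and of 7.80 to 7.83 and 8.81 to 8.87 in the wild-type arrays.

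Type I interferons bind a receptor pair on the cell surface and activate a transcription factor complex that includes STAT2 and IRF9 and binds a DNA element called the interferon-stimulated response element (ISRE) in the promoters of target genes. Interferon gamma acts through another element, the gamma-activated sequence (GAS). The genes switched on this way recognise foreign RNA, block translation or degrade RNA, trap virus at membranes, or tag proteins with the ubiquitin-like ISG15. Resting tissues also hold a low level of many of these transcripts, kept up by small amounts of interferon.

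The promoters of the members are shown for those whose behaviour in the arrays frames the results: Ifit3, Ifit1 and Gbp3, which read lower in the knockout and hold an ISRE core, Oas1a and Oas3, which hold one and hardly differed, and Oasl2, which read lower and has no match in this window. Each sequence is the RefSeq promoter on GRCm38.p6, 250 bases before and 50 bases after a start site, written 5′ to 3′ on the strand of the gene. Capitals mark matches to the ISRE core, which is GAAA, any 2 bases and GAAA again, on either strand (read as TTTC, 2 bases and TTTC where it lies on the other strand), with overlapping matches joined. The windows are chr19:34583279-34583578 (plus strand) for Ifit3, chr19:34640639-34640938 (plus) for Ifit1, chr3:142559794-142560093 (plus) for Gbp3, chr5:120907476-120907775 (minus) for Oas1a, chr5:120777610-120777909 (minus) for Oas3 and chr5:114896684-114896983 (plus) for Oasl2.
Ifit3: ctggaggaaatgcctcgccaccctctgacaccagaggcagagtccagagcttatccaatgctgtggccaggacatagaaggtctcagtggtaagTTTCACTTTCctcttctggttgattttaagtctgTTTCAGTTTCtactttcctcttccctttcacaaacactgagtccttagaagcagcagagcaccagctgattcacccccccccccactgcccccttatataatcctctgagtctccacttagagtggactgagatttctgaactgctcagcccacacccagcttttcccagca
Ifit1: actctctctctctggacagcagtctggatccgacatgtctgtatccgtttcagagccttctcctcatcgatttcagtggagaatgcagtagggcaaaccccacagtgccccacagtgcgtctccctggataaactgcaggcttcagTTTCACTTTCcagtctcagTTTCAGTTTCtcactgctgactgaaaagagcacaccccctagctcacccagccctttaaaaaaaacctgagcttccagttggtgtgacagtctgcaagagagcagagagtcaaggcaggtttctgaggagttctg
Gbp3: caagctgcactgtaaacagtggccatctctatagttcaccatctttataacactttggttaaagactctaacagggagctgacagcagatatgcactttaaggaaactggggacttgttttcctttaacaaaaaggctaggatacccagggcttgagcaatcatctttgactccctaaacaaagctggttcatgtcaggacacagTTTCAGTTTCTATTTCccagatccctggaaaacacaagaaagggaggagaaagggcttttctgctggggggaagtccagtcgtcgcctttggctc
Oas1a: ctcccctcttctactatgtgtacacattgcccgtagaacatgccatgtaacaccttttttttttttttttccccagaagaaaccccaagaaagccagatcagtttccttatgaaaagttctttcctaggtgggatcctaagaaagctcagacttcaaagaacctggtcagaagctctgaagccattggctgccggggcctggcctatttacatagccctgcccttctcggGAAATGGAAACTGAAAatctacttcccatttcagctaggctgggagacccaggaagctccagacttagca
Oas3: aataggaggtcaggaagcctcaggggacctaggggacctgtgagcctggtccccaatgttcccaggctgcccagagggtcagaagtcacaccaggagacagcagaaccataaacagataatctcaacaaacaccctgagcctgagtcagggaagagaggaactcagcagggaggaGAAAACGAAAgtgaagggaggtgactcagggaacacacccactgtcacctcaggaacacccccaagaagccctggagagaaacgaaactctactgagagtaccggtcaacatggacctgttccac
Oasl2: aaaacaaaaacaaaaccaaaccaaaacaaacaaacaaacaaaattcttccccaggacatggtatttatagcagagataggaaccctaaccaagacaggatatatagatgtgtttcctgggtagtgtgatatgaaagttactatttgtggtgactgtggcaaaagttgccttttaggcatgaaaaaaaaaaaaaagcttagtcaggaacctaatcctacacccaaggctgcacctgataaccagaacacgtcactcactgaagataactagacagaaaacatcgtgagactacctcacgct

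Ifit3 and Ifit1 each carried 2 ISRE cores upstream of the start site, beginning at -156 and -122 in Ifit3 and at -104 and -85 in Ifit1. In both genes the pair consisted of TTTCACTTTC followed by TTTCAGTTTC. Gbp3 held 2 overlapping matches from -45, and Oas1a 2 overlapping matches from -20. Promoters were found for 30 of the 40 members, and 14 of these genes (46.7%) held an ISRE core. Among all 27025 genes with a promoter in the table the share was 4.0%. The GAS core (TTC, any 3 bases and GAA), which reads the same on both strands, was in 7 of the 30 members (23.3%), against 9.6% of all genes. A match is a run of letters and not a shown binding site.

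The 12 measured members with an ISRE core had a median log2 difference (knockout minus wild-type) of -0.31, within a range of -1.04 to -0.01. The 15 without an ISRE core had a median of -0.29, within a range of -0.58 to 0.07. The knockout arrays all lay below the wild-type arrays in 7 of the 12 and in 10 of the 15. Over all genes the share was 11.3%. The members were chosen with this contrast known, so nothing is read from these counts. The other 10 measured members had no promoter in the table, among them Rtp4 and Oas2, and the difference between members with and without a core was not tested.

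Most interferon-stimulated effector genes read lower in the Pjvk-/- organ of Corti, by modest amounts. Of 37 members, 34 had a negative log2 difference and 3 a positive one, where 53.9% of all genes had a negative one. The median was -0.29, against -0.01 over all 19938 genes. The values ran from -1.04 for Ifit3 to 0.07 for Oasl1. In 20 members all 3 knockout arrays lay below all 3 wild-type arrays, where 11.3% of all genes were separated in that direction, and no member was separated in the other, against 6.59% of all genes. At least a 1.2-fold lower signal was seen in 21 members and in 1.38% of all genes.

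No member passed the test over all genes. In limma, with p-values adjusted by the Benjamini-Hochberg method, 0 of 37 had an adjusted p under 0.05, and 0.0351% of all genes were called lower. The smallest adjusted p of a member was 0.0534 (Oasl2), and 24 members were lower at an unadjusted p under 0.05, against 6.66% of all genes. None was higher at that p, against 5.74% of all genes. Nothing is read from these shares, since the contrast was known when the genes were chosen. When limma's prior followed the signal level and was fitted robustly, 6 members were called lower, namely Rtp4, Oasl2, Lgals3bp, Ms4a4c, Trim30a and Samd9l, and over all genes 100 (0.502%) were called lower and 12 higher. In tissue RNA, fewer cells of a type and less RNA per cell cannot be told apart.

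**Figure D1:**
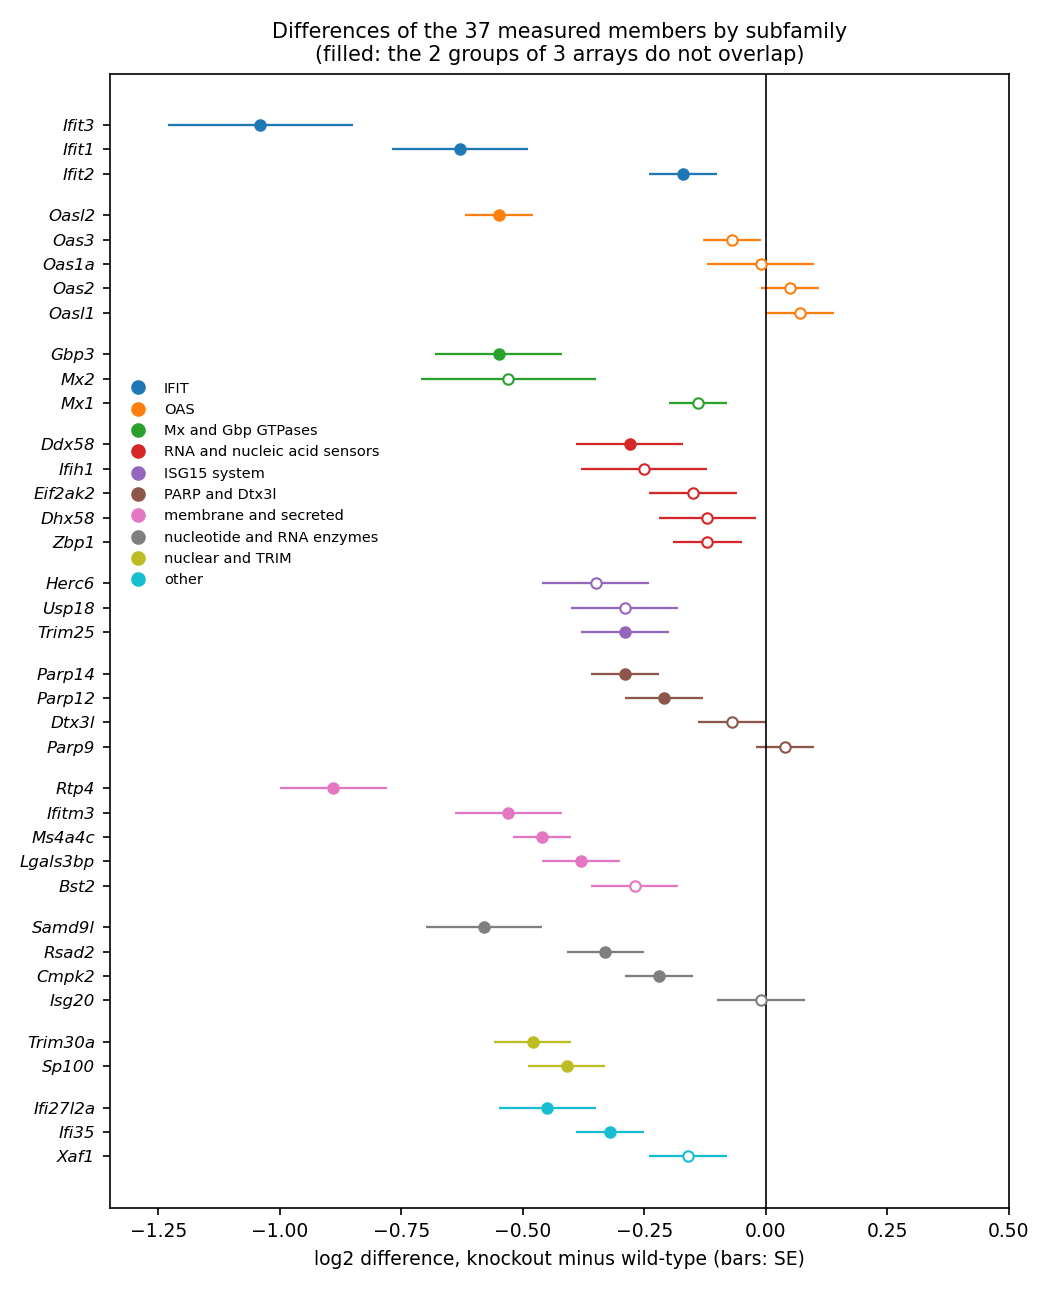
Log2 difference (knockout minus wild-type, horizontal axis) of the 37 measured members, grouped by subfamily, with standard errors as bars and 3 arrays per genotype. Filled points are genes whose 2 groups of arrays do not overlap. Ifit3 lies farthest to the left at -1.04, while 4 of the 5 OAS genes lie between -0.07 and 0.07.

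**Figure D2:**
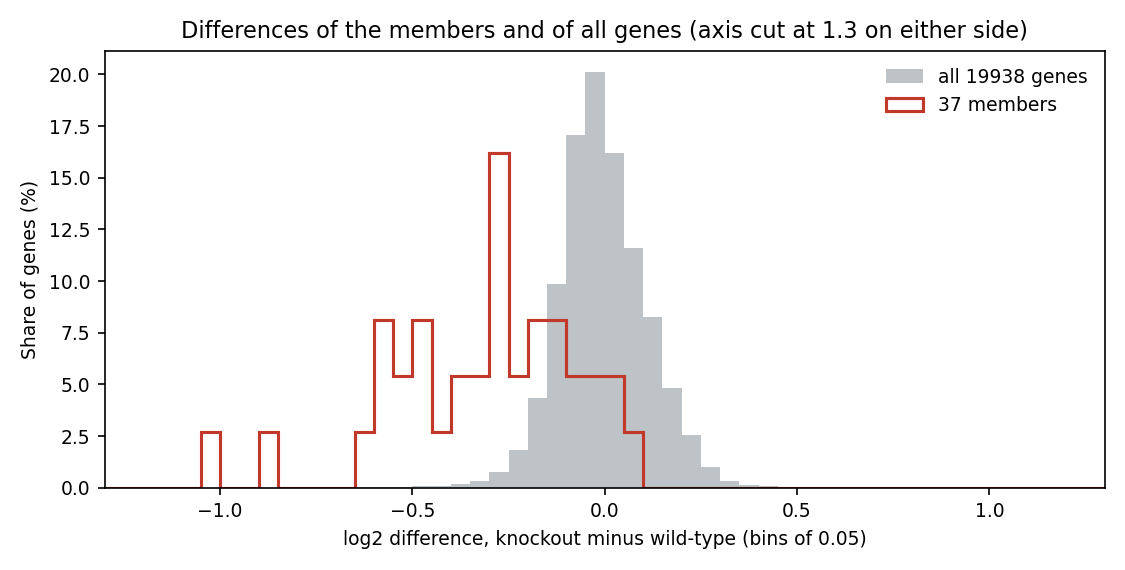
Share of genes (%, vertical axis) by log2 difference (horizontal axis, knockout minus wild-type, bins of 0.05) for the 37 members (red outline) and all 19938 genes (grey). The members have a median of -0.29 and all genes a median of -0.01. The axis leaves out the few genes beyond 1.3 in size.

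The IFIT proteins, which hold viral RNA with tetratricopeptide repeats and block its translation, had the lowest subfamily median, at -0.63. Ifit3 (probe set 10462618) read 5.86, 6.10 and 5.49 in the knockout arrays, against 7.23, 6.85 and 6.50 in the wild-type arrays. Ifit1 (probe set 10462623) read 6.86, 6.84 and 6.89 in the knockout arrays, against 7.67, 7.69 and 7.11 in the wild-type arrays. Neither gene overlapped between the genotypes, and wild-type replicate 3 was the lowest wild-type array in both. Their signals were 2.06-fold and 1.54-fold lower in the knockout, with log2 differences of -1.04 (standard error, SE, 0.19) and -0.63 (SE 0.14). Ifit2, the gene next to Ifit3 on chromosome 19, differed by -0.17 (SE 0.07). Its groups were barely separate, with knockout replicate 2 at 7.13 just below wild-type replicate 3 at 7.14. Ifit3b, a near-identical copy of Ifit3 that is not a member, read 4.22, 4.67 and 4.26 in the knockout arrays, against 5.73, 5.23 and 4.88 in the wild-type arrays. Whether the probe sets of Ifit3 and Ifit3b measure separate transcripts was not assessed.

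The OAS family was split. These proteins bind double-stranded RNA, and the active enzymes among them make short oligoadenylates that switch on RNase L. Oasl2 (probe set 10524621) read 7.07, 7.03 and 6.88 in the knockout arrays, against 7.49, 7.59 and 7.54 in the wild-type arrays. The groups were well apart, with a log2 difference of -0.55 (SE 0.07), or 1.46-fold. Its neighbour Oasl1, which in mice restrains IRF7, read 6.85, 6.83 and 6.82 in the knockout arrays, against 6.76, 6.90 and 6.64 in the wild-type arrays. The 2 groups of Oasl1 overlapped (0.07, SE 0.07). The synthetase genes Oas1a, Oas2 and Oas3 overlapped as well, with log2 differences of -0.01 (SE 0.11), 0.05 (SE 0.06) and -0.07 (SE 0.06). Oas1b and Oas1c, which are not members, differed by -0.25 (SE 0.08) and -0.11 (SE 0.15). The knockout arrays all lay below the wild-type arrays in Oas1b, while Oas1c overlapped. Probes of Oas1a may also meet transcripts of its close relatives, which was not assessed.

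Among the GTPases, Gbp3, a guanylate-binding protein that acts on the membranes of intracellular pathogens, read 7.11, 6.87 and 6.78 in the knockout arrays, against 7.65, 7.57 and 7.19 in the wild-type arrays. Its log2 difference was -0.55 (SE 0.13), with no overlap. Mx2 gave 5.18, 5.06 and 5.16 in the knockout arrays, against 5.87, 5.96 and 5.15 in the wild-type arrays. For Mx2, wild-type replicate 3 thus fell within the knockout range, while the other wild-type arrays lay well above it. The difference was -0.53 (SE 0.18) over all arrays and -0.78 without wild-type replicate 3. Mx1 differed by -0.14 (SE 0.06) and its groups overlapped. Both Mx genes are transcribed pseudogenes in the annotation of GRCm38.p6.

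The RNA and nucleic acid sensors differed less, with a median of -0.15, and all 5 were below 0, against 53.9% of all genes. Ddx58, which encodes RIG-I, the sensor of 5′-triphosphate RNA, read 7.59, 7.61 and 7.53 in the knockout arrays, against 8.13, 7.68 and 7.76 in the wild-type arrays. Its groups were separate but close, since the highest knockout array and the lowest wild-type array differed by little. The log2 difference was -0.28 (SE 0.11). The other sensors overlapped between genotypes. Ifih1, which encodes MDA5, the sensor of long double-stranded RNA, differed by -0.25 (SE 0.13). Eif2ak2, which encodes the kinase PKR that stops translation, differed by -0.15 (SE 0.09). Dhx58, the regulator LGP2, and Zbp1, a sensor of Z-form nucleic acids, each stood at -0.12 (SE 0.10 and 0.07). Ifih1 and Zbp1 lie on chromosome 2, as Pjvk does, 93 and 1101 protein-coding genes away.

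For the ISG15 system, which attaches and removes the ubiquitin-like protein ISG15, 3 genes were measured. Herc6, the main ISG15 ligase in mice, read 5.93, 6.16 and 5.77 in the knockout arrays, against 6.42, 6.36 and 6.12 in the wild-type arrays. Knockout replicate 2 lay just above wild-type replicate 3, so the groups overlapped, with a difference of -0.35 (SE 0.11). Trim25, a ubiquitin ligase that works with RIG-I, read 6.42, 6.31 and 6.48 in the knockout arrays, against 6.88, 6.62 and 6.57 in the wild-type arrays. It was separate between genotypes at -0.29 (SE 0.09). Usp18, the protease that removes ISG15 and dampens the interferon receptor, overlapped through wild-type replicate 3, also at -0.29 (SE 0.11).

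The ADP-ribosyltransferase group differed between neighbours. Parp14 read 6.94, 7.04 and 7.04 in the knockout arrays, against 7.40, 7.29 and 7.21 in the wild-type arrays. Parp12 read 7.48, 7.55 and 7.31 in the knockout arrays, against 7.72, 7.57 and 7.68 in the wild-type arrays. Both encode enzymes that attach ADP-ribose to proteins, and both were separate between genotypes, at -0.29 (SE 0.07) and -0.21 (SE 0.08), Parp12 by a narrow margin. Parp9 and Dtx3l, adjacent genes whose products form an ADP-ribosylating ubiquitin ligase, overlapped, at 0.04 (SE 0.06) and -0.07 (SE 0.07). Parp14 lies 2 genes from Parp9 on chromosome 16.

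Membrane and secreted proteins had 5 of 5 below 0 and a median of -0.46, where 53.9% of all genes were below 0. Of the 5, 4 were separate between genotypes, against 11.3% of all genes separate and lower. Rtp4 (probe set 10434778), an interferon-induced member of the receptor-transporter family, read 6.38, 6.54 and 6.34 in the knockout arrays, against 7.58, 7.24 and 7.12 in the wild-type arrays. Ifitm3, which keeps viruses from leaving endosomes, read 8.90, 9.23 and 8.81 in the knockout arrays, against 9.59, 9.58 and 9.36 in the wild-type arrays. Their groups were apart, by more in Rtp4 (-0.89, SE 0.11, 1.86-fold) than in Ifitm3 (-0.53, SE 0.11, 1.44-fold). Lgals3bp, a secreted glycoprotein that binds galectins, read 8.35, 8.45 and 8.16 in the knockout arrays, against 8.71, 8.67 and 8.71 in the wild-type arrays. Ms4a4c, a membrane protein of the MS4A family with a dim probe set (percentile 7.46 of all genes), read 4.0, 4.02 and 3.88 in the knockout arrays, against 4.43, 4.43 and 4.42 in the wild-type arrays. The wild-type arrays of these genes lay within a narrow span, and the differences were -0.38 (SE 0.08) and -0.46 (SE 0.06). Bst2, the tetherin that holds budding virus at the cell surface, differed by -0.27 (SE 0.09), with knockout replicate 2 at 7.44 just above wild-type replicate 3 at 7.43.

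Enzymes of nucleotides and RNA read lower apart from Isg20, which hardly differed. Samd9l, an antiviral restriction factor, read 6.23, 6.20 and 6.00 in the knockout arrays, against 6.99, 6.50 and 6.68 in the wild-type arrays. Rsad2, which encodes viperin, the maker of a chain-terminating nucleotide, read 5.57, 5.70 and 5.76 in the knockout arrays, against 6.01, 5.88 and 6.13 in the wild-type arrays. Cmpk2, the neighbour of Rsad2 on chromosome 12 and a mitochondrial nucleotide kinase, read 6.26, 6.22 and 6.14 in the knockout arrays, against 6.44, 6.52 and 6.32 in the wild-type arrays. These 3 genes were separate between genotypes, at -0.58 (SE 0.12), -0.33 (SE 0.08) and -0.22 (SE 0.07). The exonuclease gene Isg20 overlapped, at -0.01 (SE 0.09).

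The remaining members were mostly separate. Trim30a, a TRIM protein that restrains inflammatory signalling in mice, read 5.81, 5.82 and 5.84 in the knockout arrays, against 6.48, 6.17 and 6.27 in the wild-type arrays. Sp100, a component of PML nuclear bodies, read 6.59, 6.54 and 6.47 in the knockout arrays, against 7.07, 6.99 and 6.78 in the wild-type arrays. In both genes the knockout arrays lay close together, and the differences were -0.48 (SE 0.08) and -0.41 (SE 0.08). Ifi27l2a, a small membrane protein, read 5.63, 5.65 and 5.87 in the knockout arrays, against 6.27, 6.27 and 5.97 in the wild-type arrays. Ifi35, a partner of the interferon-induced protein NMI, read 6.85, 6.97 and 7.06 in the knockout arrays, against 7.33, 7.25 and 7.27 in the wild-type arrays. They were apart at -0.45 (SE 0.10) and -0.32 (SE 0.07), and Xaf1, a pro-apoptotic interferon target, overlapped at -0.16 (SE 0.08).

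**Figure D3:**
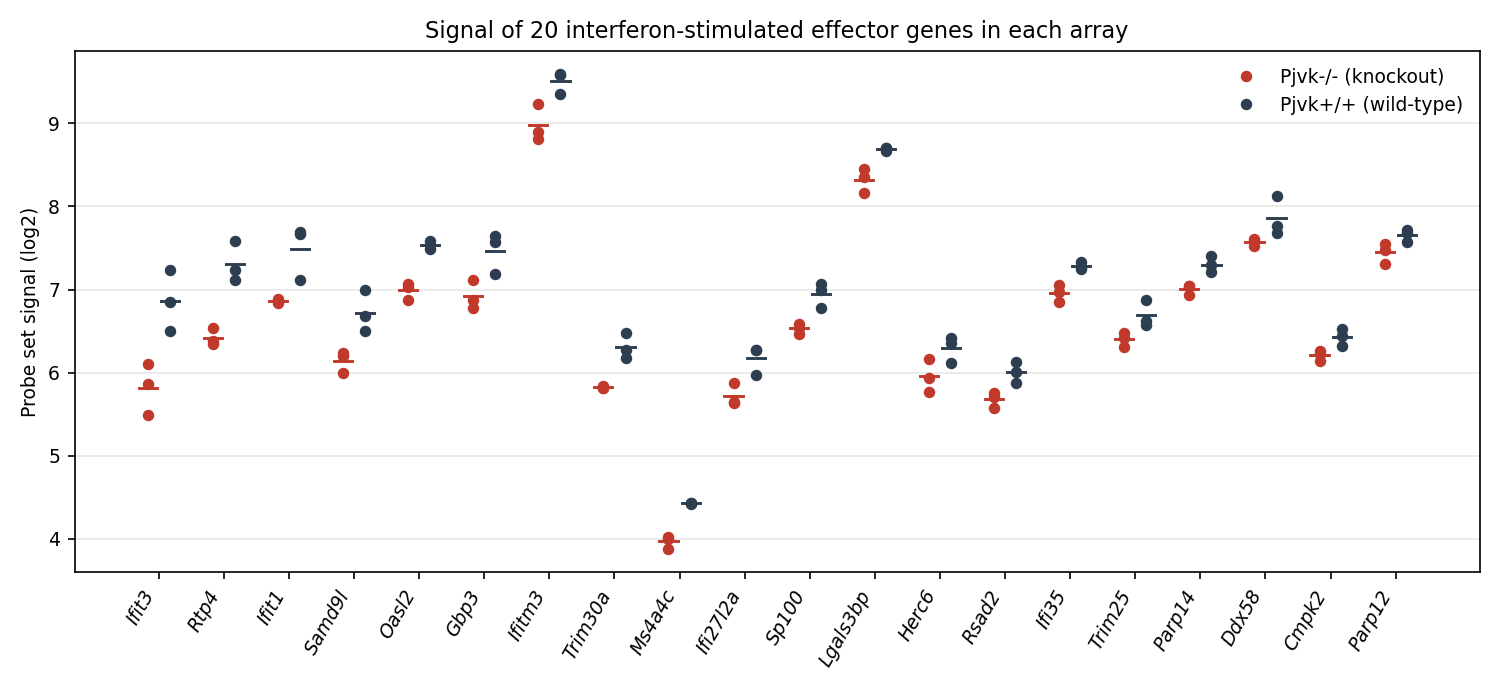
Log2 probe set signal (vertical axis) of 20 members, 19 with separate groups and a log2 difference of at least 0.2 in size and Herc6, the ISG15 gene with the largest difference, ordered by difference, with 1 point per array and a bar at the mean of the 3 arrays of each genotype. Knockout arrays stand left of wild-type arrays, and Herc6 is the 1 gene of the 20 whose groups overlap. Signals of different genes come from different probes and are not to be compared with each other.

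On average over the members, the wild-type arrays were less alike than the knockout arrays, mostly through wild-type replicate 3. The mean deviation of the 37 members from their 6-array means was -0.16, -0.12 and -0.19 in the knockout arrays, against 0.24, 0.18 and 0.04 in the wild-type arrays. Wild-type replicate 3 thus lay between the knockout arrays and the other wild-type arrays. It was the lowest wild-type array in 23 of 37 members (62.2%), against 35.9% of all genes. Wild-type replicates 1 and 2 were above every knockout array in 30 and 31 members, and replicate 3 in 22. The share of all genes was not computed for these counts, so nothing is read from them. The range over wild-type arrays exceeded that over knockout arrays in 24 of 37 members. The share of all genes was 52.3%, not far below, so little is read from that count. Without wild-type replicate 3, the groups were separate in 28 members and limma called 2, Ifit1 and Mx2. Over all genes, 16.8% were then separate and lower, and 6 (0.0301%) were called lower.

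Y-linked genes followed a similar order over the arrays. Of 4 listed, 3 were measured (Kdm5d, Uty and Eif2s3y), all 3 were lower in the knockout, and their mean log2 level was 7.58, 7.51 and 7.39 in the knockout arrays, against 8.05, 7.86 and 7.65 in the wild-type arrays. With that level as a covariate the median of the members was -0.10, Ifit3 stood at -0.36 and Gbp3 at -0.10, and 6 members were lower at an unadjusted p under 0.05. The share of all genes at that p was not computed for this fit, in which 0 of 19938 genes were called lower or higher. Oasl2 and Ms4a4c moved little and ranged from -0.58 to -0.49 and from -0.49 to -0.41 over all alternatives. Ifih1 was then at 0.22, Eif2ak2 at 0.11, and Ddx58 and Mx2 at 0.01, so that these 4 changed direction. Knockout and wild-type arrays do not share any range of Y-linked level, so the covariate coincides with the genotype for the most part, and a value that shrinks with it does not show a smaller genotype difference. The part of the sex of the animals, which the labels do not give, was not tested.

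**Figure D4:**
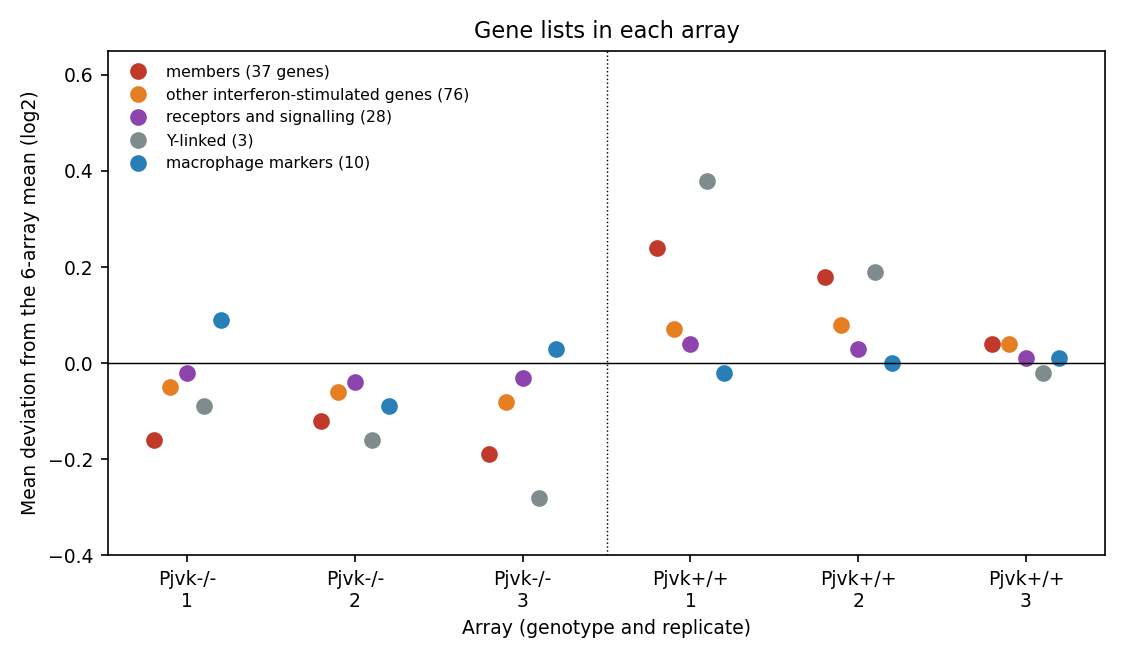
Mean deviation from the 6-array mean (log2, vertical axis) in each array (horizontal axis) for 5 gene lists, 1 point per list and array. The members are below 0 in all knockout arrays (-0.12 to -0.19) and above 0 in all wild-type arrays (0.04 to 0.24), with wild-type replicate 3 nearest to 0. Macrophage markers show no such step.

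Other interferon-stimulated genes had a smaller median difference. The 40 genes and this list were chosen with earlier results of these data known. Nothing is therefore read from that contrast or from the shares that follow. Of 76 measured interferon-stimulated genes outside the 40, 58 (76.3%) were lower and 18 higher, where 53.9% of all genes were lower. The median was -0.09. At an unadjusted p under 0.05, 25 (32.9%) were lower and 1 higher, against 6.66% and 5.74% of all genes. The groups were separate and lower in 21 (27.6%) and separate and higher in 2, against 11.3% and 6.59% of all genes. None passed over all genes. Iigp1 and Irgm1, GTPases that act against intracellular pathogens, differed by -0.51 (SE 0.08) and -0.50 (SE 0.09). Cxcl11, an attractant of T cells, read 5.53, 5.80 and 5.81 in the knockout arrays, against 6.31, 6.13 and 6.45 in the wild-type arrays. B2m, the light chain of class I histocompatibility molecules, read 10.53, 10.40 and 10.22 in the knockout arrays, against 10.89, 10.69 and 10.95 in the wild-type arrays. The groups of these 4 genes did not overlap.

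The probe sets of the interferons themselves did not read lower as a list. Of 15 measured, 5 were lower and 10 higher, with a median of 0.05. At an unadjusted p under 0.05 none was lower and 2 were higher, against 6.66% and 5.74% of all genes. The 2 were Ifna2 (0.41, SE 0.11) and Ifnab (0.18, SE 0.07). Ifnb1 stood at 0.03 (SE 0.09), Ifng at -0.08 (SE 0.09), Ifna4 at -0.12 (SE 0.06) and Ifnk at 0.13 (SE 0.06). None of the 15 passed over all genes. Their mean log2 level was 5.56 to 5.59 in the knockout arrays and 5.49 to 5.55 in the wild-type arrays, below the array medians of 6.66 to 6.69. A fall may not show in dim probe sets, and whether these detected interferon RNA was not assessed.

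Receptors and signalling factors were lower in 19 of 28 genes (67.9%), against 53.9% of all genes, with a median of -0.06. At an unadjusted p under 0.05, 6 (21.4%) were lower and 2 higher, against 6.66% and 5.74% of all genes. The groups were separate and lower in 5 (17.9%) and separate and higher in 3, against 11.3% and 6.59% of all genes. None passed over all genes. Irf9 read 7.47, 7.45 and 7.45 in the knockout arrays, against 7.69, 7.75 and 7.67 in the wild-type arrays. Stat2 read 7.88, 7.86 and 8.10 in the knockout arrays, against 8.18, 8.28 and 8.16 in the wild-type arrays. Both genes were thus separate between genotypes, at -0.25 (SE 0.05) and -0.26 (SE 0.08). Il10rb, a receptor chain of interferon lambda, differed by -0.17 (SE 0.05) and Tlr9, a DNA sensor of endosomes, by 0.20 (SE 0.07). Stat2 and a few others stand in both this list and the preceding one.

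Marker lists of immune cells, which express many of these genes, had medians at or above 0. Of 10 macrophage markers 4 were lower and 6 higher, with a median of 0.01. Their mean log2 level was 6.96 to 7.14 in the knockout arrays and 7.03 to 7.06 in the wild-type arrays. The medians were 0.05 for 4 T cell markers, 0.11 for 2 B cell markers, 0.01 for 3 NK cell markers and 0.18 for 4 neutrophil markers. In the same order, the mean log2 levels over all arrays were 5.65 to 5.84, 4.49 to 4.85, 4.20 to 4.42 and 5.14 to 5.45. These lie below the array medians of 6.66 to 6.69, so a difference in these lists may not show. Of 3 markers of plasmacytoid dendritic cells, Siglech stood at 0.00 (SE 0.08), Ccr9 at 0.16 (SE 0.06) and Bst2, itself one of the 40 genes, at -0.27 (SE 0.09). Endothelial markers were lower in 4 of 4, with a median of -0.10 and mean log2 levels of 7.74 to 7.83 in the knockout arrays and 7.87 to 7.90 in the wild-type arrays. Melanocyte markers were lower in 3 of 4, with mean log2 levels of 5.96 to 6.20 in the knockout arrays and 6.51 to 6.74 in the wild-type arrays, mostly through Dct. Alas2, an erythroid gene, differed by -0.22 (SE 0.09). Skeletal muscle markers were higher in 5 of 5, with a median of 0.14 and mean log2 levels of 6.27 to 6.46 in the knockout arrays and 6.16 to 6.26 in the wild-type arrays, and Myh4, a muscle myosin, was at 0.35 (SE 0.07) with no overlap. The part of immune cell, endothelial, melanocyte, erythroid or muscle RNA in the differences of the members was not tested.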

How the data were processed

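The 6 arrays were Affymetrix mouse gene ST arrays hybridised with biotinylated cDNA from 100 ng of total RNA, per the labels' protocols. Per the submitters' processing notes, the software was Affymetrix Expression Console, whose version is not stated. The authors' deposited values are log2 signals per probe set, and how they were summarized and normalized is not stated there. Array medians ran from 6.66 to 6.69, so no further normalization was applied.

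Of 35557 probe sets, 21789 carried 1 gene symbol in the platform annotation, 1621 carried several and 12147 were not listed. Symbols were updated through gene identifiers (21698 matched, assembly GRCm38.p6), and the probe set with the highest mean was kept, which gave 19938 genes. No filter on dim genes was applied, so that all 37 measured members entered the fit. In all, 5 members lay under the 25th percentile of level and 24 under the median.

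The genotype comparison used limma 3.58.1 under R 4.3.3 (functions lmFit and eBayes; 4 residual and 4.59 prior degrees of freedom), and p-values were adjusted over all genes. With 3 arrays against 3, the smallest two-sided p of an exact permutation test is 0.1, and precision is limited by this number of arrays. The fit was tested on simulated data. The members, gene lists and alternatives were chosen with earlier results of these data known. Array values are printed for members separate between genotypes with a log2 difference of at least 0.2 and for the largest difference in each subfamily. They are also printed for Mx2, Oasl1 and Ifit3b, and in part for Ifit2 and Bst2, chosen after their values were seen. Up to 4 genes of each other list are named by smallest unadjusted p, with Ifnb1, Ifng, Siglech, Oas1b and Oas1c added likewise. RefSeq promoters were searched for motifs on both strands.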

Additional observations from a re-analysis of the deposited data

How the results depend on the processing

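The replicate numbers of the labels did not pair the arrays: deviations from the group means of same-numbered arrays correlated at 0.076, 0.019 and -0.009, and knockout replicate 3 correlated best with wild-type replicate 2 (0.093). With the replicate number as a block, the median of the members stayed at -0.29, 25 were lower at an unadjusted p under 0.05 and 0 were called. The median over the measured members was between -0.30 and -0.28 with the mean of probe sets, both level filters, quantile normalization, median centring, cyclic loess and the intensity trend, and was -0.10 once the Y-linked level was a covariate, which also took the members lower at an unadjusted p under 0.05 to 6 and moved 26 of 37 members by more than their spread between replicates. The count of members called over all genes was 2 of 32 (Oasl2 and Rtp4) with the filter at the 25th percentile and 1 of 13 (Oasl2) with the filter at the median level. Of 37 members, 3 (Oasl2, Ms4a4c and Rtp4) were called with median centring, 1 (Oasl2) with cyclic loess and 6 with the intensity trend. Over all genes tested, the filters called 18 of 14956 and 42 of 9969 genes lower, in the same order. The other 3 settings called 18, 8 and 100 of 19938 lower, against 7 of 19938 with the values as deposited. The filter at the median level left 13 members, 11 of them lower at an unadjusted p under 0.05 and 10 separate between genotypes, fewer because fewer members were tested. With each array left out in turn, the median ran from -0.33 to -0.22, members lower at an unadjusted p under 0.05 from 18 to 27, members called from 0 to 2 and separate members from 21 to 28. Over all 19938 genes, those omissions called from 2 to 6 genes lower. Leaving out an array can only keep or raise the number of separate genes, so the range of separate members says nothing about stability. Without wild-type replicate 3, 16.8% of all genes were separate and lower, against 11.3% with all arrays. Shares of all genes at an unadjusted p under 0.05 were not computed for the alternative settings, so those member counts stand without one. The share of separate genes under the filter at the median level was not computed either. Apart from the 4 members named with the Y-linked covariate, the sign turned for Oas1a and Isg20 (both -0.01 with all arrays) when single arrays were left out, to at most 0.08 and 0.06. The cause of these shifts was not tested.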
